A study of Mus musculus with 19 samples.

Results

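Kidneys with no CD5L were compared with kidneys at the other end of CD5L supply: the obstructed kidneys of 4 CD5L KO mice injected with PBS (CD5L KO + PBS) and of 5 WT mice injected with recombinant CD5L (WT + rCD5L). These 9 kidneys were chosen by genotype and treatment from the sample titles, out of 19 in the series. All donors were male mice on the C57BL/6J background, 8 to 9 weeks old, whose left ureter had been ligated (unilateral ureteral obstruction, UUO). Injections were daily and intraperitoneal, at 0.5 mg rCD5L or the same volume of PBS, and whole kidneys were taken 12 days after surgery. No unobstructed kidney entered the comparison, and the methods describe a balanced allocation without formal randomization, with surgery, injections and sample handling alternated between groups. The origin of the CD5L KO line was not given in the sources used here. Genotype and treatment differ together between the groups, so their contributions cannot be told apart.

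CD5L, also called AIM, is a scavenger receptor cysteine-rich protein that tissue macrophages make and that circulates bound to IgM. Ureteral obstruction injures the tubules by back pressure, after which fibroblasts fill the space between tubules with collagen and other matrix. Tubule cells run on mitochondrial respiration, and they detoxify peroxides with glutathione- and thioredoxin-dependent enzymes, many of which are switched on by the transcription factor Nrf2 when its inhibitor Keap1 lets it go. RNA sequencing counts fragments, so a long transcript yields more fragments than a short one, and any difference between libraries in how evenly transcripts are sampled can move short and long genes in opposite directions. Counts with gene length taken out are therefore given beside those of most gene lists.

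The deposited counts held between 18694817 and 23847090 reads assigned to genes per kidney in the 2 groups. All 19 markers of tubule segments, podocytes, endothelium, macrophages and fibroblasts were detected in all 9 kidneys. Every pair of kidneys within a group differed beyond sampling noise (chi-square per degree of freedom of at least 7.02 over 16 pairs), so each was counted as 1 sample. Outside the comparison, CD5L KO + rCD5L replicate 4 stood apart from its group, with 10.1% of its counts from mitochondrially encoded protein genes against 3.08% to 3.72% in the other 4 kidneys. The labels give no batch or date, and the library names carry a different prefix for each group.

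Cd5l itself (chr3:87357881-87371073, GRCm38) was read 0 times in all 4 CD5L KO + PBS kidneys. A count of 0 allows up to 3 reads per library. The WT + rCD5L kidneys held 9, 3, 15, 3 and 11 reads, few of their total counts. rCD5L was given as protein, so these counts check the genotype and not the supply of CD5L.

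Of 17629 genes tested with edgeR, 4672 (26.5%) differed at an adjusted p under 0.05, 2326 of them higher and 2346 lower in CD5L KO + PBS. In 22.6% of the tested genes the 2 groups did not overlap at all. Most differences were small. The absolute log2 fold change was under 0.5 for 3775 of the called genes and at least 1 for 135 of them (0.766% of the tested genes). Among the gene lists examined, which hold 546 of the called genes, most respiratory chain, ATP synthase, ribosomal protein and core proteasome genes were higher without CD5L, as were 13 of 21 antioxidant enzymes. Most collagens and basement membrane genes and 9 of 16 endothelial genes were lower. Gene length separated the groups as well.

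The largest rises in CD5L KO + PBS, on a log2 scale, were seen for genes of diverse kinds. The 8 rises and 8 falls named were picked among called genes whose groups do not overlap. Igkv9-120, an immunoglobulin light chain variable segment, had 19.03, 0.519, 1.26 and 4.18 CPM (counts scaled to the size of the library) in the 4 CD5L KO + PBS kidneys and 0.105 to 0.297 CPM in the 5 WT + rCD5L kidneys. The log2 difference of 4.82 ± 0.93 (SE, adjusted p = 0.00236) rested partly on the first of these kidneys and came to 3.15 without it. Values in WT + rCD5L were near the floor, and the gene passed the expression filter only through CD5L KO + PBS. This limits what its p-value can show. Among 42 immunoglobulin genes tested 2 were higher and 0 lower, below the 13.2% and 13.3% of all tested genes. Rn7sk, the 7SK small nuclear RNA that holds back transcription elongation, had 54.6, 9.77, 13.9 and 9.87 CPM against 1.63 to 3.09 CPM. Its log2 difference was 3.19 ± 0.49, or 2.20 without the first kidney. The same kidney had the highest values of the rRNA gene CT010467.1 (3091 CPM against 683 to 1222 in the other 3, and 332 to 400 in WT + rCD5L) and of Lars2, the mitochondrial leucyl-tRNA synthetase (671 against 189 to 287 CPM, and 129 to 166 in WT + rCD5L). CT010467.1 overlaps Gm42418 and AY036118, so its reads could not be placed with certainty. Without that kidney the log2 differences were 1.25 for CT010467.1 and 0.58 for Lars2, in place of 1.94 and 1.17.

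Krt15, a basal urothelial keratin, had 60.3, 58.6, 73.4 and 97.7 CPM in CD5L KO + PBS and 33.4, 54.6, 30.05, 12.4 and 28.6 CPM in WT + rCD5L (log2 1.18 ± 0.28, adjusted p = 0.0078). Fgg, the gamma chain of fibrinogen, had 64.7, 92.9, 191 and 68.9 CPM against 36.0 to 51.4 CPM. Non-overlap of the groups was part of how both genes were chosen. Nat8f3, an N-acetyltransferase gene, and Slco1a1, an organic anion transporter of the proximal tubule, completed the 8 largest rises. Slco1a1 was 2.10-fold higher, at 25.7, 27.8, 41.0 and 37.8 CPM against 12.0, 24.2, 11.1, 21.3 and 9.92 CPM.

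Among the 8 largest falls, 3 code for matrix proteins. Col12a1 (chr9:79598991-79718831, GRCm38), a fibril-associated collagen, had 225, 259, 175 and 178 CPM in CD5L KO + PBS against 461, 399, 333, 638 and 448 CPM in WT + rCD5L. It was 2.20-fold higher with WT + rCD5L (log2 -1.14 ± 0.17, adjusted p = 0.000457), and non-overlap of the groups was part of how it was chosen. Col6a6, a microfibrillar collagen chain, had 2.61, 1.21, 1.21 and 2.01 CPM against 3.35, 3.77, 6.74, 5.001 and 4.92 CPM. Hmcn1, the large basement membrane protein hemicentin, had 7.35, 9.52, 4.4001 and 10.02 CPM against 18.7, 15.3, 14.3, 26.5 and 17.5 CPM. Zbtb16, a transcription factor induced by glucocorticoids, showed the largest fall of the 8, with 1.89, 4.37, 5.87 and 1.65 CPM against 11.5, 6.07, 13.99, 11.8 and 19.1 CPM (log2 -1.87 ± 0.37, adjusted p = 0.00249). The others were Dio2, the deiodinase that activates thyroid hormone, Scube1, a secreted cell surface protein, Hif3a, a hypoxia-inducible factor subunit, and Gm43481, a transcript that overlaps Gtf2i. Of 133 genes followed singly 57 overlap another annotated gene, Col12a1, Col6a6 and Hmcn1 among them, and with the strand setting not given, reads in the shared stretch could belong to either.

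**Figure D1:**
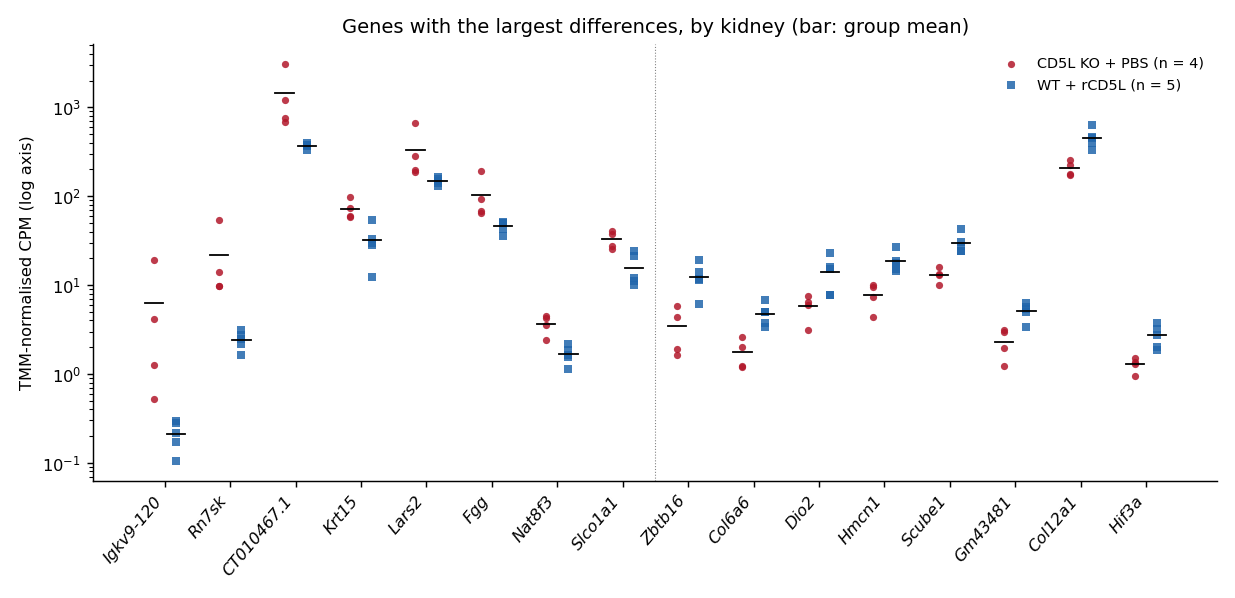
TMM-normalised CPM on a log axis for the 8 genes with the largest rises (left of the dotted line) and the 8 with the largest falls in CD5L KO + PBS (red circles, n = 4) against WT + rCD5L (blue squares, n = 5); each point is a kidney and each bar a group mean. The 16 genes were picked among those whose groups do not overlap. For Igkv9-120, Rn7sk, CT010467.1 and Lars2, 1 CD5L KO + PBS kidney lies far above the other 3.

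Short and long genes went in opposite directions. The length used is the one listed in the count table. It equalled the merged exon length of the GENCODE vM21 annotation for 98.0% of genes. Merged exons span all annotated transcripts of a gene, so a gene listed as long can have a short main transcript. Lengths given below are these listed ones. Across all tested genes the log2 fold change correlated with gene length at a Spearman rho of -0.35 (n = 17629 genes, which share the same libraries). For the longest transcript of each gene rho was -0.39 (n = 17614 genes). The tested genes were ranked by length and cut into 5 classes of equal size. Among the shortest class (57 to 1893 bases) 824 were higher and 62 lower in CD5L KO + PBS, with a median log2 fold change of 0.20. In the longest class (6853 to 123179 bases) 162 were higher and 1167 lower, with a median of -0.14. The middle class held 426 higher and 337 lower genes, at a median of -0.02.

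The tilt was also measured in each kidney, as the slope of its log2 CPM, relative to the mean of the 9 kidneys, on the log2 of gene length. Slopes were -0.0555, -0.0478, -0.0521 and -0.0349 per doubling of length in CD5L KO + PBS and 0.0254, 0.0354, 0.0372, 0.0433 and 0.0490 in WT + rCD5L. The groups did not overlap. Slopes are relative to the mean of these 9 kidneys, so their signs follow from that centring. Only differences between kidneys can be read. The means of -0.0476 ± 0.00902 (SD, n = 4) and 0.0381 ± 0.00888 (SD, n = 5) differed at a two-sided exact permutation p of 0.00794, the smallest that the possible splits of 9 kidneys can give. Mitochondrially encoded protein genes, which are short and lie outside the nucleus, took 3.30%, 3.76%, 4.46% and 3.81% of all counts in CD5L KO + PBS and 2.89%, 2.98%, 2.73%, 2.55% and 2.30% in WT + rCD5L. Their share did not overlap between the groups either (exact permutation p = 0.00794, the same value after adjustment over both measures).

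Among the other 10 kidneys, WT + PBS slopes ran from -0.00512 to 0.0304 with a median of 0.0109, below the median of WT + rCD5L (0.0372) but with an overlap between those groups. CD5L KO + rCD5L slopes ran from -0.0776 to -0.00193 with a median of -0.0155. Replicates 3 and 4 of that group had slopes of -0.0737 and -0.0776, below every CD5L KO + PBS kidney, while the other 3 lay above all of those. Mitochondrial shares of WT + PBS (2.71% to 3.81%) overlapped both ends.

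**Figure D2:**
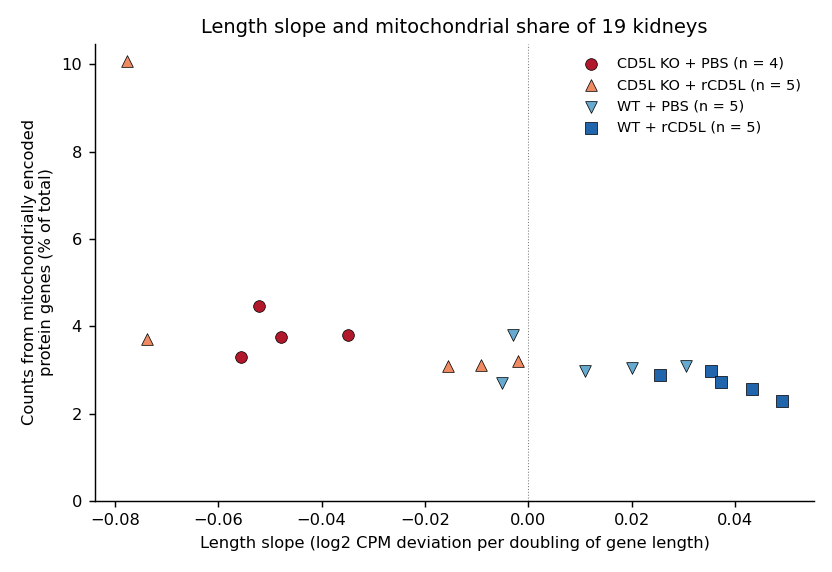
Length slope (log2 CPM deviation per doubling of gene length, x axis) and share of counts from mitochondrially encoded protein genes (percent, y axis) of the 19 kidneys, each point 1 kidney and each group a marker as in the legend. CD5L KO + PBS kidneys sit at slopes of -0.0555 to -0.0349 and WT + rCD5L kidneys at 0.0254 to 0.0490, and CD5L KO + rCD5L replicate 4 stands apart at 10.1%.

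To see which genes separated the groups at equal listed length, each kidney's own trend on length was taken out as an offset in the same edgeR model. With the offset 3412 genes (19.4%) were called, 1951 higher (11.1%) and 1461 lower (8.29%). Of these 2747 were also called without it, which is 58.8% of the original calls and 80.5% of the offset calls, and 0 of them changed direction. The shortest class then held 304 higher and 162 lower genes and the longest 458 and 422. After the offset rho was 0.02 with listed length and -0.05 with the longest transcript. The fold change was related to GC content as well. The Spearman rho between the fold change and the GC content of the longest transcript was -0.19 before and -0.30 after the length offset (n = 17614 genes), and an offset on both length and GC content called 2549 genes, 2190 of them among the original calls. A smooth trend removes any real difference that follows length or GC content as well, so the offset values stand beside the original ones and do not replace them.

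**Figure D3:**
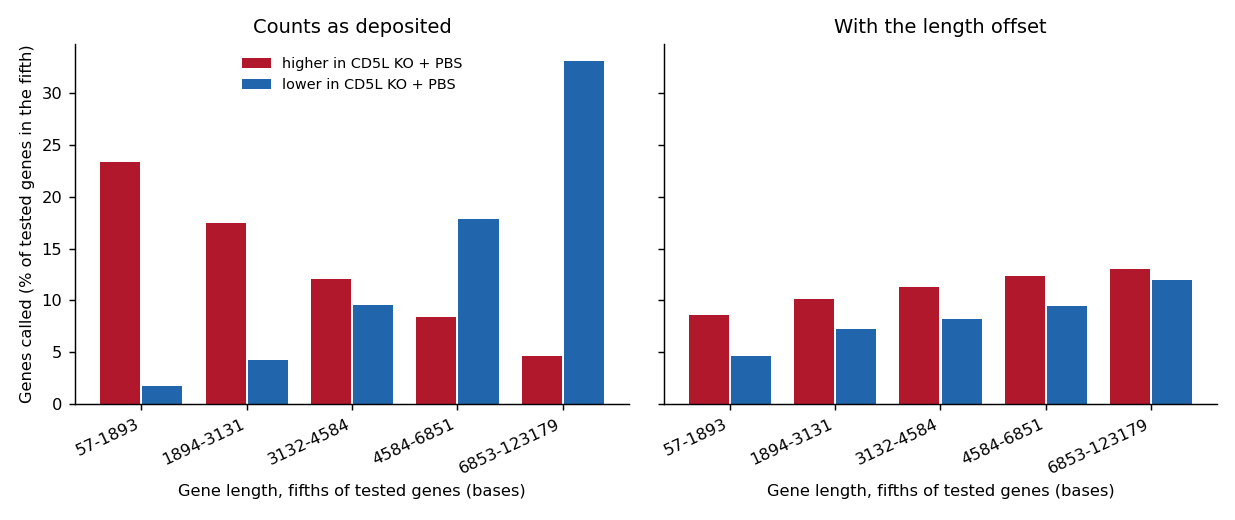
Percent of tested genes called higher (red) or lower (blue) in CD5L KO + PBS against WT + rCD5L, by class of gene length in bases, from the counts as deposited (left) and with the length offset (right). Without the offset 824 genes of the shortest class were higher and 1167 of the longest lower; with it the classes held 304 to 458 higher and 162 to 422 lower genes.

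The genes with the smallest p at either end of the length range are given here, Gstt1 and Vcl with the offset as well. They were picked by p in these same kidneys, so a call kept with the offset is no separate test. Gstt1, a theta-class glutathione S-transferase of 1528 bases, had 149, 139, 128 and 137 CPM in CD5L KO + PBS and 93.2, 97.5, 93.1, 88.1 and 90.7 CPM in WT + rCD5L (log2 0.57 ± 0.06, adjusted p = 0.000181; with the offset 0.40, adjusted p = 0.000732). Lamtor4, a subunit of the lysosomal Ragulator complex that tethers mTORC1, had 63.6, 63.9, 63.8 and 61.2 against 44.5, 49.1, 43.5, 44.7 and 43.9 CPM. The third, Dynlt1-ps1, is a processed pseudogene whose reads could belong to its parent gene. At the long end, Vcl (vinculin, which links integrins to actin; 8191 bases) had 71.0, 68.6, 73.1 and 80.6 CPM against 108, 121, 119, 117 and 121 CPM (log2 -0.69 ± 0.06; with the offset -0.58, adjusted p = 0.000348). Itga9, an integrin alpha chain, had 38.9, 41.8, 39.5 and 34.2 against 63.9, 65.2, 59.4, 70.7 and 66.0 CPM. Fat1, a giant cadherin, fell from 236 to 299 CPM in WT + rCD5L to 148 to 166 CPM in CD5L KO + PBS.

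Nuclear genes of mitochondrial respiration were higher almost throughout. Of 76 tested subunits of complexes I, III and IV and of ATP synthase, 69 were higher and 0 lower in CD5L KO + PBS, against 13.2% and 13.3% of all tested genes. The median log2 fold change was 0.44, beside -0.02 over all genes. By complex, 35 of 37 subunits of complex I (which takes electrons from NADH) were called higher. Complex III followed with 8 of 9, cytochrome c oxidase with 10 of 14 and ATP synthase with 16 of 16. Ndufv2, a core subunit of complex I, had 152, 147, 163 and 145 CPM in CD5L KO + PBS against 109, 109, 100, 103 and 100 CPM (log2 0.53 ± 0.05, adjusted p = 0.000181), so the groups were well apart. Uqcr10, a small subunit of complex III, had 183, 183, 200 and 181 against 125, 137, 113, 109 and 110 CPM. Cox7c, a cytochrome c oxidase subunit, had 245, 238, 227 and 224 against 161, 180, 144, 143 and 151 CPM.

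These subunits are mostly short, so they were read at equal listed length too. With the length offset 57 of the 76 were called higher and 1 lower, at a median of 0.29. Within every class of gene length the subunits were called higher more often than the other genes of that class: 41 of 45 in the shortest, where 23.4% of all genes were higher, and 8 of 9 in the middle class, where 12.1% were. Atp5l, a membrane subunit of ATP synthase listed at 6443 bases, had 148, 151, 176 and 159 CPM against 112, 116, 104, 102 and 100 CPM, and its log2 difference was 0.56 as deposited and 0.64 with the offset. Ndufs1, a complex I subunit of 8086 bases that was picked after its value was seen, ran against the length trend at 0.36 ± 0.06 (adjusted p = 0.000888). Both lengths are listed ones, so neither value shows a rise at equal transcript length. The 12 mitochondrially encoded genes tested had a median of 0.54. As deposited 10 of them were higher, among them mt-Co1 at 14156, 16322, 20660 and 15815 CPM against 9415 to 11505 CPM. With the length offset 5 of the 12 were called higher, where 11.1% of all tested genes were. Their median was then 0.32, beside 0.29 for the 76 subunits. The offset on length and GC content left 1 called higher, at a median of 0.14.

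Ribosomal protein genes moved the same way. Among the proteins of the cytosolic ribosome 71 of 82 were higher and 0 lower (median log2 0.41), and among those of the mitochondrial ribosome 61 of 77 were higher and 0 lower (median 0.32). With the length offset 59 and 46 were called higher. Rps7, a small-subunit protein, had 742, 701, 782 and 673 CPM in CD5L KO + PBS against 527, 525, 479, 514 and 469 CPM in WT + rCD5L. Mrps14, a small-subunit protein of the mitochondrial ribosome, had 49.5, 53.9, 54.7 and 53.8 against 37.2, 41.2, 37.6, 36.3 and 36.9 CPM (log2 0.47 ± 0.06, and 0.44 with the offset). In the 2 longest classes 16 of 19 ribosomal protein genes were higher. Mrpl48, at 8152 bases and also named after its value was seen, was one of them at log2 0.41 ± 0.06. Ribosomal protein genes have many processed pseudogenes that can share their reads, and 105 of 648 tested processed pseudogenes were higher and 3 lower, beside 13.2% and 13.3% of all tested genes and 23.4% and 1.76% of the shortest length class.

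The proteasome, which degrades ubiquitin-tagged proteins, showed the same direction. In its core particle 14 of 17 subunits were higher, and in the regulatory particle 10 of 20. Psma3, an alpha-ring subunit, had 131, 130, 134 and 127 CPM against 99.1, 105, 96.2, 98.1 and 95.1 CPM (log2 0.39 ± 0.05, and 0.40 with the offset). With the length offset 12 and 10 subunits were higher. Of the chaperones and unfolded protein response genes 4 of 28 were higher and 3 lower, beside 13.2% and 13.3% of all tested genes, or 3 and 2 with the length offset (11.1% and 8.29%). Hspe1, the mitochondrial co-chaperonin, was higher (0.50 ± 0.06) and Creld2, an endoplasmic reticulum stress gene, lower (-0.23 ± 0.06).

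**Figure D4:**
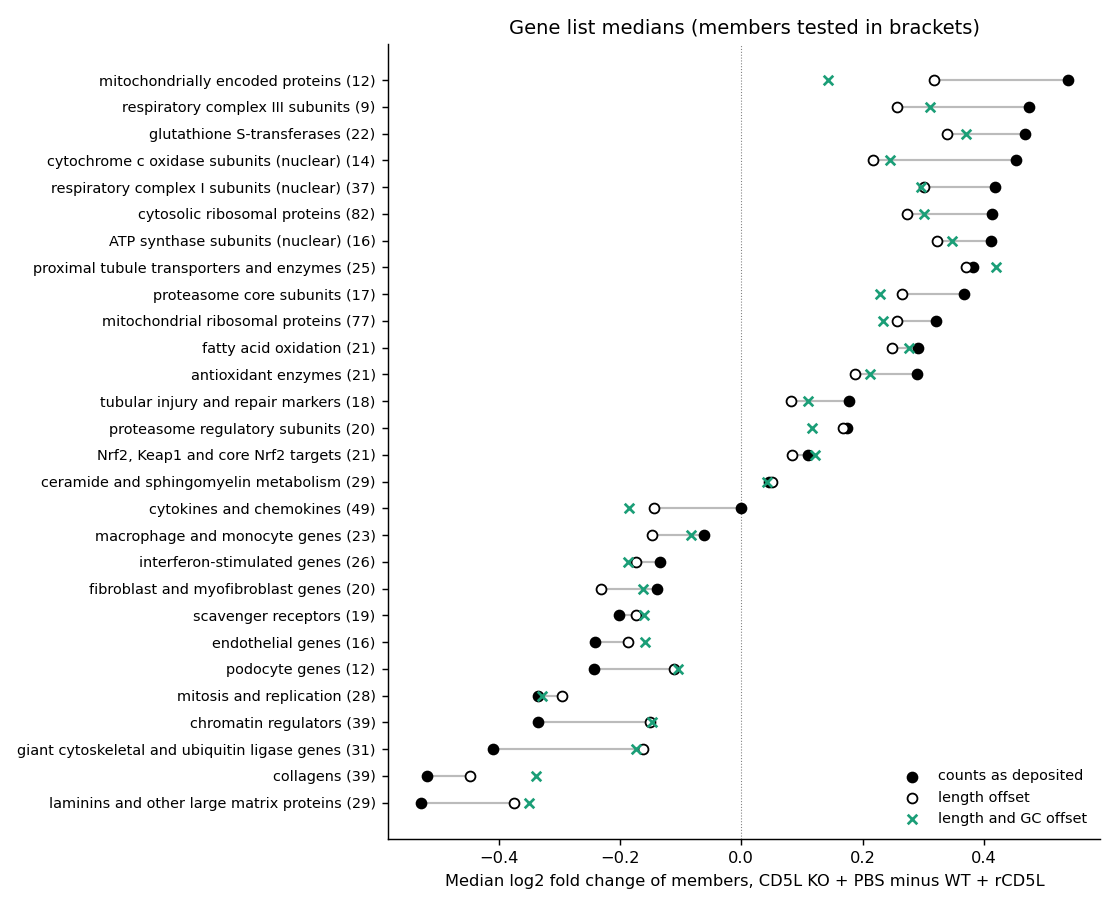
Median log2 fold change of the members of the gene lists drawn, which leave out the markers of neighbouring tissues and some other lists, CD5L KO + PBS minus WT + rCD5L, from the counts as deposited (black), with the length offset (open circles) and with the length and GC offset (green crosses); the number of members tested is in brackets. Medians run from 0.54 for mitochondrially encoded proteins to -0.53 for laminins and other large matrix proteins, and the offsets bring most of them closer to 0.

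Antioxidant enzymes were higher in the kidneys without CD5L. Of 21 tested, 13 were called higher and 0 lower (median log2 0.29), beside 13.2% and 13.3% of all tested genes. With the length offset 10 were called higher, beside 11.1% of all tested genes. Gpx4, the selenoenzyme that reduces lipid peroxides in membranes, had 531, 569, 729 and 597 CPM in CD5L KO + PBS and 411, 412, 377, 406 and 352 CPM in WT + rCD5L (log2 0.62 ± 0.09, adjusted p = 0.000354). Gpx1, the cytosolic glutathione peroxidase, had 1514, 1531, 1637 and 1539 against 1063, 1241, 1103.4, 1028 and 1077 CPM. Prdx1, a cytosolic peroxiredoxin, had 726, 719, 848 and 731 against 510, 559, 506, 539 and 463 CPM. No CD5L KO + PBS kidney fell within the range of WT + rCD5L for any of the 3. Sod2, the mitochondrial superoxide dismutase, is listed at 10008 bases and was higher against the length trend, by 0.29 ± 0.06. The proximal tubule list had a median of 0.38. Both lists were highest in replicate 3 within CD5L KO + PBS and in replicate 2 within WT + rCD5L. Whether the level of tubule RNA accounts for the antioxidant values was not tested.

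Of the glutathione S-transferases, which couple glutathione to electrophiles, 13 of 22 were higher and 0 lower, beside 13.2% and 13.3% of all tested genes. With the length offset 11 were higher and 1 lower (11.1% and 8.29% of all). The shortest length class held 14 of the 22, of which 8 were higher, beside 23.4% of all its genes. Gsta2 had 119, 130, 119 and 173 CPM against 67.3, 74.8, 71.7, 50.9 and 70.3 CPM, a 2.002-fold difference (adjusted p = 0.00025). Gstm5 and the membrane-bound Mgst1 were higher by 0.65 ± 0.07 and 0.59 ± 0.08.

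Genes at the centre of the Nrf2 pathway moved less. Of 21 listed, 8 were higher and 0 lower, with a median of 0.11, beside 13.2% and 13.3% of all tested genes. The shortest length class held 5 of the 8, and 23.4% of all its genes were higher. With the length offset 4 of 21 were higher, beside 11.1% of all tested genes. The offset on length and GC content left 3, beside 1471 of all 17629. Nfe2l2, which codes for Nrf2, had 177, 185, 169 and 195 CPM against 189, 185, 195, 189 and 188 CPM (log2 -0.07 ± 0.05, adjusted p = 0.335), and Keap1 differed by -0.03 ± 0.06. Nqo1, a quinone reductase and a standard Nrf2 target, was higher, with 24.03, 29.1, 41.98 and 30.7 against 20.7, 23.5, 18.7, 18.0 and 15.996 CPM (log2 0.69 ± 0.14, adjusted p = 0.00382). Txn1, thioredoxin, had 309, 316, 315 and 316 against 227 to 262 CPM. Hmox1, Gclc and Gclm overlapped between the groups. Hmox1, heme oxygenase, had 53.0, 54.5, 57.2 and 62.6 against 58.8, 60.3, 52.6, 63.4 and 48.8 CPM. Gclc and Gclm, the catalytic and modifier subunits of the enzyme that starts glutathione synthesis, differed by 0.01 ± 0.14 and 0.11 ± 0.10. Within CD5L KO + PBS replicate 3 was the highest for Gclc (234 CPM against 134 to 160) and Gclm (183 against 119 to 149).

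The promoters of the Nrf2 list were read for the core of the antioxidant response element, TGACNNNGC on either strand, to show which members carry it near their start site. The 300-base windows came from RefSeq (GRCm38.p6), from 250 bases before to 50 after the start. Of 18 list members with a promoter 8 held the motif, against 16.7% of all 12413 tested genes with one. Among these 8, 2 were called higher, as were 6 of the 10 without it. Over all genes 287 of 2072 with the motif and 1444 of 10341 without it were called higher. Prdx1 (higher) and Gclm (not called) each hold 1 copy, which begins 133 and 134 bases before the start site. Capitals mark the motif.
Prdx1 promoter, chr4:116685349-116685648, plus strand: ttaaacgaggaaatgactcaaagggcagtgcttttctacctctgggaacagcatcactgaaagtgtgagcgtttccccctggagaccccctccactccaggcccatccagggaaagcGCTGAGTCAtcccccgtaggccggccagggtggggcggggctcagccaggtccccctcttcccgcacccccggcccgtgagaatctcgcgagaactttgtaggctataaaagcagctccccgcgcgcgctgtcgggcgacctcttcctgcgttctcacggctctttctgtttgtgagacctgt
Gclm promoter, chr3:122245307-122245606, plus strand: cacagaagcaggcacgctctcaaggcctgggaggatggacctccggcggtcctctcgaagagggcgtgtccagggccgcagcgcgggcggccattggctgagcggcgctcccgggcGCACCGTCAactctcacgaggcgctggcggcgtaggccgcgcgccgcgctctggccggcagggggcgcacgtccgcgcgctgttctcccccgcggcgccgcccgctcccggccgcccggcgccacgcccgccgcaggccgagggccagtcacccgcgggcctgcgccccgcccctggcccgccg

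Fatty acid oxidation is the main fuel pathway of the proximal tubule, and 12 of its 21 listed genes were higher and 0 lower (median 0.29, and 0.25 with the length offset). Hadhb, the beta subunit of the mitochondrial trifunctional protein, had 144, 151, 148 and 144 CPM in CD5L KO + PBS against 111, 105, 106, 103 and 102 CPM (log2 0.46 ± 0.05, adjusted p = 0.000181). It is listed at 6595 bases, and the difference was 0.55 with the offset. Echs1, the short-chain enoyl-CoA hydratase, ran against the length trend in the longest class at 0.38 ± 0.07. Proximal tubule transporters and enzymes were variable. Their median was 0.38, yet 4 of 25 were called higher and 1 lower, or 2 and 1 with the length offset, beside 13.2% and 13.3% of all tested genes (11.1% and 8.29% with the offset). Kidneys within a group ranged from 6166 to 12293 CPM for the summed list in CD5L KO + PBS and from 5609 to 8017 CPM in WT + rCD5L. Slc13a1, the sulfate cotransporter, was higher and did not overlap (503, 550, 651 and 580 against 365, 467, 361, 359 and 386 CPM). Miox, a proximal tubule oxygenase, ran from 81.8 to 192 CPM against 71.7 to 119 CPM. It was not called without CD5L KO + PBS replicate 2, 3 or 4 or WT + rCD5L replicate 3, 4 or 5. The call was also lost with the length offset (0.58, adjusted p = 0.0767) and with the offset on length and GC content (adjusted p = 0.0623). Neither FPKM values (adjusted p = 0.0792 with a pseudocount of 1) nor either replicate block called it.

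Of 18 markers of tubular injury 7 were higher and 3 lower, beside 13.2% and 13.3% of all tested genes, or 4 and 2 with the length offset (11.1% and 8.29%). Havcr1, which codes for the injury marker KIM-1, had 616, 557, 742 and 753 CPM against 466, 549, 447, 610 and 483 CPM. The groups overlapped, and the log2 difference of 0.37 ± 0.10 (adjusted p = 0.0179) was not called with the length offset (0.28, adjusted p = 0.0714), with the offset on length and GC content (0.20, adjusted p = 0.226) or without CD5L KO + PBS replicate 4 (0.31, adjusted p = 0.0611). It was not called from FPKM values either (0.35, adjusted p = 0.0529 with a pseudocount of 1). Spp1, osteopontin, had 22453, 20593, 25268 and 20151 CPM against 14601 to 16220 CPM. Cdh6, a cadherin of injured proximal tubule, went the other way, with 39.8, 39.5, 30.1 and 33.3 against 47.9, 55.4, 56.8, 58.9 and 55.0 CPM.

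Extracellular matrix genes were lower without CD5L. Of 39 collagen genes 26 were lower and 1 higher (median log2 -0.52). Among 29 laminins and other large matrix proteins 26 were lower and 0 higher (median -0.53). The shares of all tested genes were 13.3% lower and 13.2% higher. Col3a1, the fibrillar collagen of scar, had 1144, 1262, 968 and 964 CPM in CD5L KO + PBS and 1684, 2026, 2120, 2428 and 2100 CPM in WT + rCD5L. It was 1.92-fold higher in WT + rCD5L (log2 -0.94 ± 0.10, adjusted p = 0.000222), with no overlap. Col15a1, a collagen next to basement membranes, had 238, 214, 208 and 211 against 344, 394, 327, 434 and 443 CPM. Col6a3, the long chain of microfibrillar collagen, had 114, 162, 117 and 139 against 209, 263, 223, 237 and 267 CPM. Fibrillar (Col1a1, -0.78), microfibrillar (Col6a1, -0.83) and basement membrane collagens (Col4a1, -0.55) were all among the lower genes. The one higher member, Col17a1, belongs to the attachment plaques of stratified epithelia (0.47, adjusted p = 0.0353, with overlapping groups), and is named after its value was seen.

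Basement membrane genes followed the collagens. Hspg2, which codes for perlecan, had 211, 207, 192 and 213 CPM against 305, 333, 320, 319 and 395 CPM (log2 -0.71 ± 0.07, adjusted p = 0.000181). Lamc1, the laminin gamma chain found in most laminins, had 126.1, 134, 116 and 140 against 181, 197, 198, 198 and 207 CPM, and Nid1, which bridges laminin and collagen IV, had 231, 259, 198 and 235 against 324, 362, 336, 343 and 382 CPM. Each of these genes is long, so length was set beside them. In the longest class 38 of 46 matrix genes were lower, where 33.1% of all genes were, and in the next class 12 of 18, where 17.87% were. With the length offset 22 collagens and 23 other matrix genes were called lower and 1 of each list higher, and Col3a1 and Hspg2 differed by -0.81 and -0.53. With the offset on length and GC content 19 of each list were called lower.

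**Figure D5:**
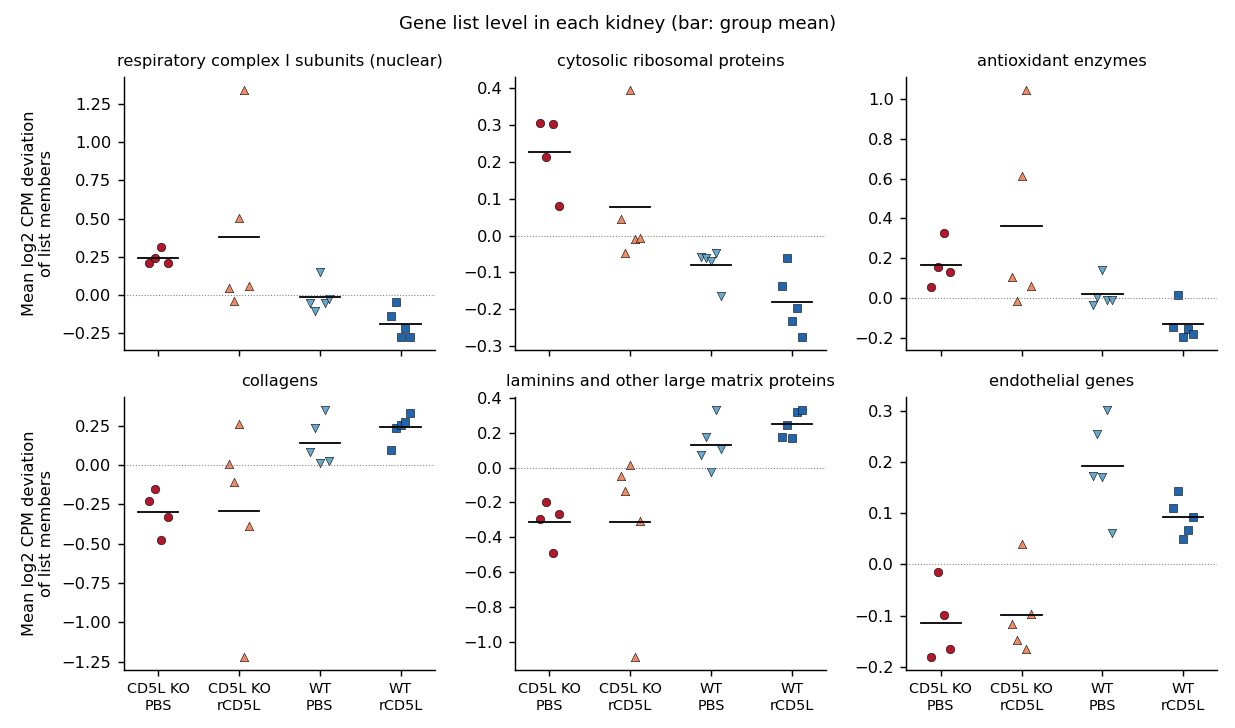
Mean log2 CPM deviation of the members of 6 gene lists from the mean of the 9 compared kidneys, for all 4 groups. Each point is 1 kidney and each bar a group mean. The 6 lists were picked from 52, so their separation does not speak for the others. CD5L KO + PBS (0.21 to 0.32 for complex I, -0.48 to -0.15 for collagens) and WT + rCD5L (-0.28 to -0.05 and 0.10 to 0.33) do not overlap in any of the 6 panels, and WT + PBS kidneys are shown beside them.

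Genes of fibroblasts and myofibroblasts, the cells that lay down this matrix, were lower in 7 of 20 cases and higher in 0 (median -0.14). With the length offset 8 were lower. The shares of all tested genes called lower were 13.3% and, with the offset, 8.29%. In whole kidney RNA, fewer cells of a type and less RNA per cell cannot be told apart. Pdgfra, a PDGF receptor of fibroblasts, had 197, 192, 158 and 174 CPM against 298, 269, 244, 301 and 279 CPM (log2 -0.64 ± 0.08, adjusted p = 0.000258). Sparc, a collagen-binding glycoprotein, differed by -0.51 ± 0.08 as deposited and with the offset. Tgfb1, the main profibrotic cytokine gene, had 84.5, 84.2, 89.4 and 84.2 against 86.0, 96.2, 82.5, 97.2 and 106 CPM and was not called (log2 -0.14 ± 0.07, adjusted p = 0.146). The summed level of the fibroblast list ran from 4026 to 4865 CPM against 4971 to 5901 CPM.

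Endothelial genes were lower in 9 of 16 cases and higher in 0 (median -0.24), and 8 were called lower with the length offset. The shares of all tested genes called lower were 13.3% and, with the offset, 8.29%. Tie1, an endothelial receptor of the angiopoietin system, had 53.6, 60.2, 57.7 and 51.7 CPM against 74.5, 77.4, 72.6, 72.2 and 72.6 CPM. Robo4 and Eng, an endothelial guidance receptor and a TGF-beta coreceptor, were lower by -0.48 ± 0.07 and -0.40 ± 0.08. The summed endothelial level was 1135 to 1271 CPM against 1346 to 1458 CPM, without overlap. Podocyte genes are long (median 6672 bases), and length mattered for them. As deposited 7 of 12 were lower and with the offset 1 was, near the 8.29% of all tested genes. Podxl, for example, lost its call (-0.28 ± 0.08, adjusted p = 0.0551 with the offset).

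Macrophages are the source of CD5L and carry scavenger receptors. Of 23 macrophage and monocyte genes 2 were higher and 4 lower, beside 13.2% and 13.3% of all tested genes, or 1 and 4 with the length offset (11.1% and 8.29%). Csf1r, the receptor for the macrophage growth factor, had 256, 252, 154 and 207 CPM in CD5L KO + PBS against 310, 320, 316, 340 and 297 CPM (log2 -0.56 ± 0.12, adjusted p = 0.00432), with CD5L KO + PBS replicate 3 the lowest. Cd68, a lysosomal glycoprotein of phagocytes of 1257 bases that was picked after its value was seen, was lower against the length trend (-0.29 ± 0.08, and -0.48 with the offset). Scavenger receptors were lower in 8 of 19 cases and higher in 2, or 7 and 1 with the length offset. Stab1, which clears modified proteins, had 114, 120, 103 and 106 against 178, 162, 166, 179 and 186 CPM (log2 -0.66 ± 0.06, adjusted p = 0.000181). Cd36, a fatty acid and lipoprotein receptor also made by tubule cells, ran the other way, with 160, 161, 194 and 193 against 102, 122, 144, 116 and 103 CPM. Lgals3bp, a secreted protein that shares the scavenger receptor domain of CD5L, had 266, 228, 196 and 222 against 326, 330, 333, 341 and 381 CPM.

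Inflammatory cytokine genes did not move together. Of 49 cytokines and chemokines 5 were higher and 5 lower, shares below those of all tested genes (13.2% and 13.3%), and with the length offset 1 was higher and 4 lower. Il1b had 26.9, 29.8, 28.9 and 13.3 CPM against 8.82, 14.02, 17.899, 42.6 and 14.6 CPM and was not called (log2 0.33 ± 0.36, adjusted p = 0.539). A single WT + rCD5L kidney, replicate 4, held the highest Il1b value of all 9, and without it the difference was 0.83 (adjusted p = 0.0264). S100a9, an alarmin of neutrophils, had 3.97, 4.76, 5.26 and 4.65 against 3.05, 4.13, 4.76, 3.17 and 2.54 CPM (adjusted p = 0.152). Cx3cl1, a chemokine that retains monocytes, differed by -0.44 ± 0.09. Tnf, named after its value was seen, was called by a narrow margin (log2 -0.53 ± 0.18, adjusted p = 0.0489) and stayed called when CD5L KO + PBS replicate 1 was left out (0.027) but not when any other single kidney was (0.0542 to 0.131). Mif, a macrophage cytokine of 745 bases, had 149, 149, 182 and 151 CPM against 121, 131, 122, 112 and 113 CPM (log2 0.39 ± 0.07), and the length offset ended its call (0.14, adjusted p = 0.175).

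Genes of ceramide and sphingomyelin metabolism gave 4 higher and 3 lower of 29, beside 13.2% and 13.3% of all tested genes, or 4 and 1 with the length offset (11.1% and 8.29%). The sphingomyelinases Smpd1, Smpd2 and Smpd3 were not called. Smpd1, the acid enzyme of the lysosome, had 76.5, 72.4, 88.1 and 76.5 CPM against 76.8, 80.3, 76.1, 82.6 and 75.8 CPM (log2 -0.01 ± 0.06), and Smpd2 differed by 0.11 ± 0.07. Smpd3 was near 1 to 3 CPM in every kidney, a level at which small changes could not be detected. Smpdl3a, a phosphodiesterase of the same family, was higher (221, 221, 230 and 220 against 162, 190, 177, 147 and 154 CPM). Cerk, ceramide kinase, was lower (-0.33 ± 0.06), as was Cers4, a ceramide synthase, though its call was lost with the length offset. Sptlc2, a subunit of the enzyme that begins sphingolipid synthesis, was higher by 0.24 ± 0.06 in the longest class of genes.

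Lists of very long genes moved with the length trend. Of 39 chromatin regulators, with a median length of 13971 bases, 31 were lower and 0 higher, and with the length offset 18 were lower and 1 higher. Ep300, a histone acetyltransferase, had 63.5, 70.8, 63.9 and 74.0 CPM against 93.8, 94.6, 94.5, 91.6 and 101 CPM (log2 -0.50 ± 0.06, and -0.31 with the offset). Of 31 giant cytoskeletal and ubiquitin ligase genes 27 were lower, and 15 with the offset. The medians of both lists went from -0.34 and -0.41 to -0.15 and -0.16. Syne1, a nuclear envelope anchor of 40491 bases, had 43.4, 45.2, 37.9 and 42.04 against 63.7, 56.3, 62.8, 64.3 and 62.4 CPM. Of 13 abundant long noncoding RNAs 2 were higher and 2 lower, beside 13.2% and 13.3% of all tested genes, or 4 and 1 with the length offset. Of the lower ones Malat1, a nuclear RNA, had 892, 914, 711 and 866 against 1376, 1076, 1433, 1287 and 1278 CPM, and Neat1, the scaffold of paraspeckles, overlapped between the groups (log2 -0.53 ± 0.14, adjusted p = 0.111 with the offset).

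Markers of some neighbouring tissues differed between the groups as well. The shares of all tested genes were 13.2% higher and 13.3% lower (11.1% and 8.29% with the length offset). No member of the adrenal (2 tested), red blood cell (6) or skeletal muscle (3) lists was called. Of 11 urothelial markers 9 were higher and 0 lower in CD5L KO + PBS (3 higher with the length offset), and their summed level ran from 497 to 779 CPM against 208 to 509 CPM. Krt5, a basal keratin, had 85.9, 95.9, 76.2 and 129 CPM against 49.8, 81.6, 45.5, 29.4 and 52.4 CPM. Adipose markers were higher in 4 of 7 cases (3 with the length offset), with a summed level of 200 to 386 CPM against 121 to 236 CPM. Adipoq, the adipokine adiponectin, had 14.9, 18.7, 14.6 and 8.16 against 2.33, 3.71, 10.5, 3.61 and 4.25 CPM. Epididymal markers were lower in 5 of 9 cases with and without the offset, at a summed 10.96 to 32.2 CPM against 23.0 to 47.1 CPM, while Cst11 and Lcn9 of the same list were at 0 in all 9 kidneys. These levels move with the results above, and their part in them was not tested. Of 5 liver markers 2 were higher and 0 lower with and without the offset, at a summed 269 to 535 CPM against 177 to 340 CPM, while transcripts of albumin, which defines liver, were at 0.406 to 1.31 CPM.

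The kidneys that the test did not use were placed between or beyond the ends. For 86.2% of the 4672 called genes the mean log2 CPM of WT + PBS lay between those of CD5L KO + PBS and WT + rCD5L, and it was nearer to CD5L KO + PBS for 25.4% of them. The called genes were chosen for ends that lie apart, which by itself makes a group between them more likely, so the 52.1% of all tested genes is no measure of chance here. CD5L KO + rCD5L was between the ends for 51.3% of the called genes (30.3% of all tested). It was nearer to CD5L KO + PBS for 75.8% of the called genes, beside 62.8% of all tested genes. Without its replicate 4 the share of the called genes was 61.9%. For several lists it lay beyond CD5L KO + PBS, with a median difference from WT + rCD5L of 0.57 for complex I and 0.53 for antioxidant enzymes, where CD5L KO + PBS had 0.42 and 0.29. Replicates 3 and 4 of CD5L KO + rCD5L were its highest for complex I: the list mean of the 5 kidneys was 0.04, -0.05, 0.50, 1.35 and 0.06 (log2 deviation), against 0.21 to 0.32 in CD5L KO + PBS. Set side by side, the median of the complex I list was 0.29 between CD5L KO + PBS and WT + PBS and 0.18 between WT + PBS and WT + rCD5L, and that of the collagens -0.52 and -0.10. These paired values share the WT + PBS kidneys. In the collagen list WT + PBS kidneys ran from 0.01 to 0.35 and WT + rCD5L kidneys from 0.10 to 0.33, so those groups overlapped, whereas every CD5L KO + PBS kidney was at -0.15 or below.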

How the data were processed

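Obstructed kidneys of 19 mice were sequenced as paired-end total RNA libraries, and the 9 of CD5L KO + PBS and WT + rCD5L were compared. Per the submitters' processing notes and the study's methods, the authors used Trimmomatic, HISAT2 and featureCounts with GRCm38. Versions, strand setting and the treatment of multimapping reads were not given in the sources used here. The authors deposited raw counts per gene with a gene length column, and FPKM values (counts scaled to transcript length and library size), which served as an alternative.

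From the counts, genes were kept by filterByExpr (minimum count 10), normalised by TMM and tested with edgeR 4.0.16 (quasi-likelihood, R 4.3.3, Benjamini-Hochberg adjustment over all tested genes, threshold 0.05), with no covariate. The length offset was a loess-type trend (lowess, span 0.3) of each kidney's log2 CPM (prior count 2) on log2 gene length. Alternatives were DESeq2 1.42.0, RLE factors, other filters, FPKM with limma 3.58.1 on log2(FPKM + 1) and log2(FPKM + 0.1), a replicate block, all kidneys in 1 fit, and each kidney left out. Fits with the GC offset or without CD5L KO + rCD5L replicates 3 or 4 were chosen after seeing the data. Scripts were tested on simulated data.

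Named genes were Cd5l, the 8 largest rises and 8 largest falls that were called, did not overlap and averaged 1 or more in log2 CPM, 3 genes by p in the shortest and in the longest of 5 length classes, up to 4 by p per list, and 14 genes the study names or measures. Others were named after their values were seen: Ndufs1, Sod2, Mrpl48, Echs1, Cd68, Tnf, Col17a1, Col1a1, Col4a1 and Col6a1. The comparison and the lists were chosen with earlier results of these data known. P-values measure only the spread between these kidneys. One gene that the rule for named genes selects is not reported here.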

Additional observations from a re-analysis of the deposited data

Results flagged for a closer look

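In 25 of 326 groups of values 1 kidney stood far from the others of its group, where chance flags about 1 in 20. No cause was tested. CD5L KO + rCD5L replicate 4 had a mitochondrial share of 10.1%. CD5L KO + PBS replicate 3 stood apart with a complex III list mean of 0.396 (log2 deviation) and with the highest CPM of its group for Uqcr10 (200.03), Prdx3 (155.0), Prdx1 (848), Keap1 (56.3), Tgfb1 (89.4), Smpd2 (56.2), Smpdl3a (229.6) and Mif (182). Other CD5L KO + PBS kidneys stood apart for Rn7sk (replicate 1, 54.6 CPM), Robo4 (replicate 2, 35.5 CPM), Lamtor4 (replicate 4, 61.2 CPM) and Cers4 (replicate 4, 24.2 CPM).

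In WT + rCD5L, replicate 2 stood apart with an antioxidant list mean of 0.0148, the highest of its group, and with Lamtor4 (49.1 CPM), Mrps14 (41.2 CPM), Slc13a1 (467 CPM) and Syne1 (56.3 CPM). Replicate 5 did so for Mgst1 (95.8 CPM), Lgals3bp (381 CPM) and Smpd3 (3.06 CPM), replicate 3 for the adipose genes Adipoq (10.5 CPM) and Cfd (64.5 CPM), and replicate 4 for Il1b (42.6 CPM).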

How the results depend on the processing

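The 4672 calls (2326 higher, 2346 lower; 546 list members) depended on the kidneys in the fit and on the threshold. All 19 kidneys in 1 fit gave 573 calls (343 higher, 230 lower; 120 list members), 2704 (1412 and 1292) without CD5L KO + rCD5L replicate 4, and 4670 (2302 and 2368) without its replicates 3 and 4, which lie outside the comparison. The length offset left 1461 lower genes, the offset on length and GC content 2549 calls (1471 and 1078), and a log2 fold change of at least 1 left 135 (73 and 62; 22 list members). A replicate block by title number gave 2767 calls (1391 and 1376), and with the length offset 1390 (845 and 545; 258 list members). A block by the number in the library names, which differs from the title number in CD5L KO + PBS, gave 3601. Same-numbered kidneys did not deviate together by title number (correlations -0.122 to 0.0172) or by library number (-0.0961 to 0.0817). These are 4 pairs per numbering, with deviations taken within groups, so they cannot show whether any kidneys shared a day. Leaving out 1 kidney gave 3838 to 4694 calls. WT + PBS lay between the ends for 83.4% of called genes by group medians and 75.3% after length adjustment. CD5L KO + rCD5L was nearer to CD5L KO + PBS for 71.6%, 69.5%, 61.9% (without replicate 4) and 66.95% (without replicates 3 and 4). Of 133 genes followed singly, those named in the text with a value among them, 122 were called, 117 whichever kidney was left out, 114 with the length offset, 112 with length and GC content, and 26 under every alternative; 0 reversed. Of 52 list medians 41 kept their sign under every alternative.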

Other observations

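Other gene groups moved less evenly, beside 13.2% of all tested genes called higher and 13.3% lower. Of 13 S100 calcium-binding proteins 8 were higher and 1 lower in CD5L KO + PBS, S100a10 among them (0.54 ± 0.06), but 2 were called with the length offset. Of 28 mitosis and replication genes 10 were lower and 0 higher (7 lower with the length offset), including the spindle checkpoint kinase Bub1b (-0.59 ± 0.11) and Rrm2, a ribonucleotide reductase subunit (-0.57 ± 0.11). Of 26 interferon-stimulated genes 5 were lower and 0 higher (4 lower with the length offset), among them Oasl2 (-0.55 ± 0.12) and Stat2 (-0.45 ± 0.11). Of 20 T and NK cell genes 2 were lower (1 with the length offset), a share below that of all tested genes, among them Cd4 (-0.77 ± 0.16). Complement genes gave 3 higher and 2 lower of 20 with and without the offset, near the shares of all tested genes, with Cfi, a complement inhibitor, at 0.52 ± 0.08 and C5ar1, the C5a receptor, at -0.48 ± 0.09.

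Around Cd5l on chromosome 3, 55 of 153 tested genes within 5 Mb were called (35.9%) and 81 of 277 within 10 Mb (29.2%), beside 26.5% of all tested genes. The genetic background of the 2 lines around the locus was not tested.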
